A study of Mus musculus with 8 samples.

Results

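A set of 10 genes of macrophage checkpoint ligands and costimulatory molecules was followed in mouse bone marrow-derived macrophages (BMDM) treated with bilirubin. These were taken by symbol from the gene table, which held 53819 genes, and all 10 were found with 1 gene identifier each. These were *Cd274*, *Pdcd1lg2*, *Cd80*, *Cd86*, *Cd40*, *Havcr2*, *Lgals9*, *Vsir*, *Sirpa* and *Cd244a*. Marrow came from 4 female BALB/cJ mice aged 8 weeks, with no genetic change named in the labels, and was differentiated for 5 days with 25 ng/mL M-CSF, the macrophage colony-stimulating factor. One culture of each mouse then received 2.5 µM bilirubin, the end product of heme breakdown, and another received the DMSO vehicle for 48 h, giving 4 vehicle and 4 bilirubin libraries of poly(A)-selected RNA. The study asked how bilirubin alters macrophages, including the genes through which they restrain or activate T cells, and the values below cover RNA and not surface protein.

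T cells need a signal from their antigen receptor together with a costimulatory signal, and antigen-presenting cells such as macrophages supply the latter through CD80 and CD86, which bind CD28. CD40 on the macrophage receives help from CD40 ligand on activated T cells and raises costimulation through the TRAF proteins and NFκB. Checkpoint ligands oppose this. PD-L1 (*Cd274*) and PD-L2 (*Pdcd1lg2*) bind PD-1 on T cells, VISTA (*Vsir*) restrains T cells, and galectin-9 (*Lgals9*) binds TIM-3 (*Havcr2*), which is also carried by macrophages. SIRPα (*Sirpa*) is the receptor by which macrophages read CD47, the signal that holds back engulfment, and 2B4 (*Cd244a*) is a SLAM family receptor that binds CD48.

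Libraries held 34142781 to 47071714 counts on genes, the lowest being the bilirubin library of mouse 1. Bilirubin and vehicle cultures were compared within mice with the quasi-likelihood (QL) test of edgeR, adjusting p over 13722 genes after Benjamini and Hochberg, and genes under an adjusted p of 0.05 were called. Of these genes, 1033 passed (7.53%), with 616 upregulated (4.49%) and 417 downregulated (3.04%), and the count rose to 1910 (13.9%) without mouse 1. For this reason, values without mouse 1 are given where they change a call or a direction of a gene described. The macrophage markers *Adgre1*, *Cd68*, *Itgam* and *Lyz2* were at 517, 1861, 849 and 19145 CPM on average with vehicle (CPM, the counts-per-million scale after TMM scaling). With bilirubin *Adgre1*, *Itgam* and *Lyz2* rose, with log2 fold changes of 0.42, 0.26 and 0.35. The markers *Mrc1*, *Fcgr1* and *Mertk* had log2 fold changes of -0.40, -0.20 and -0.15 and did not pass, but passed without mouse 1 (-0.65, -0.39 and -0.20). *Cd68* and *C1qa* did not pass with all mice, nor without mouse 1 (-0.12 and -0.45). The median log2 fold change of these 8 macrophage markers was -0.15. DESeq2 called 1 of them lower, and edgeR and limma-voom called 0 lower. The part of these markers in the results was not tested. Of the 8 T cell markers, 6 (*Cd3d*, *Cd3e*, *Cd3g*, *Cd8a*, *Cd8b1* and *Trac*) had 0 to 3 counts in every library. The other 2 were detected, with *Cd2* at 7.5 to 8.21 CPM with vehicle and 4.6 to 10.1 CPM with bilirubin, and *Lck* at 5 to 25 counts per library. The summed markers of dendritic cells were at 0.0631 to 0.235 CPM with vehicle and 0.36 to 0.747 CPM with bilirubin, and 0 of these 8 genes had enough counts for a test. The summed neutrophil markers reached 33.0 to 39.8 CPM with vehicle and 45.2 to 54.2 CPM with bilirubin. In this list *S100a8* rose by 1.07 on the log2 scale, and *Ly6g*, *Camp* and *Retnlg* had 0 to 3 counts. With all mice, 0 genes of the list were called lower. Without mouse 1, *Csf3r* had a log2 fold change of -0.25 and passed (adjusted p = 0.012 by edgeR's QL test). The part of this list in the results was not tested. In bulk RNA, fewer cells carrying a transcript cannot be told apart from less transcript per cell.

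The start sites of 4 of the genes are shown because they carry the contrasts described below. *Cd244a* was the gene that passed the test, and *Havcr2* was lower with bilirubin in all 4 mice. *Cd274* and *Lgals9* moved in opposite directions in mice 1, 2 and 4. RefSeq start sites on GRCm38.p6 were found for 7 of the 10 genes (all but *Cd86*, *Cd40* and *Sirpa*), each as 250 bases before to 50 bases after the start. These windows were searched on both strands for the letters of the NFκB motif (GGG, any 3 bases, TTCC), the interferon-stimulated response element (ISRE: GAAA, any 2 bases, GAAA), the GAS element (TTCNNNGAA) and AP-1 (TGANTCA). Sequences run 5′ to 3′ along the gene, with matches in capitals, and no match overlapped another.

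*Cd244a* (chr1:171558943-171559242, plus strand): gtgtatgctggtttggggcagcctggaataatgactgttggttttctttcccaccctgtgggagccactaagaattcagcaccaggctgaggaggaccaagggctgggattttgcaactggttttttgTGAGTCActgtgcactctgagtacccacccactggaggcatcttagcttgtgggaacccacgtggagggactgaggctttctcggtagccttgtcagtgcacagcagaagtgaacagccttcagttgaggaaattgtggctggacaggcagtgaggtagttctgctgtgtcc
*Havcr2* (chr11:46454681-46454980, plus strand): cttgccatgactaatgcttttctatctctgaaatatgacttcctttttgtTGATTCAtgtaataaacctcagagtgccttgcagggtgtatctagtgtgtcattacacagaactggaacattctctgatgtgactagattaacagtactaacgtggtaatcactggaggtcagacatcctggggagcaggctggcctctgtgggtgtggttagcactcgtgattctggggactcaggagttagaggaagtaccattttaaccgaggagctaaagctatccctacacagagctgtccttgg
*Lgals9* (chr11:78984875-78985174, minus strand): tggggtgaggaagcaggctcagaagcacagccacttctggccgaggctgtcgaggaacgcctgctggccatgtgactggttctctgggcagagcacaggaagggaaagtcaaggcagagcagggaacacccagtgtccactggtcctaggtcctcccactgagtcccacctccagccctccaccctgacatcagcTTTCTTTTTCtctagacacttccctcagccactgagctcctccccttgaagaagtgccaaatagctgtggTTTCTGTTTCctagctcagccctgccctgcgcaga
*Cd274* (chr19:29367188-29367487, plus strand): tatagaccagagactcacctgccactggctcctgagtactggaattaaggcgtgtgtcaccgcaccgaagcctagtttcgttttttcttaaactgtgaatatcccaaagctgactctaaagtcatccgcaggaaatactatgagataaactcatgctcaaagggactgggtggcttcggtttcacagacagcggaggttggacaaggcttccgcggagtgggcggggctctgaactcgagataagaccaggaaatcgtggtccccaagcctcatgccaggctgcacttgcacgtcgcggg

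An AP-1 match began 122 bases before the start of *Cd244a* and 200 bases before that of *Havcr2*, and *Cd80* held another 42 bases before its start. *Lgals9* held 2 ISRE matches, beginning 55 bases before and 16 bases into the transcript, both on the strand opposite to the gene. *Cd274*, *Pdcd1lg2* and *Vsir* held none of these letters in this window, which says nothing of the factors themselves. Among 32851 mouse start sites of the same length, 7.81% held the AP-1 letters, 3.44% those of the ISRE, 8.3% those of GAS and 5.56% those of NFκB. These matches are a description of the sequence only.

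The 10 genes spanned a wide range of expression. On the length-corrected transcripts-per-million scale (TPM), the vehicle means ran from *Sirpa* at 882 ± 29.1 (SD, n = 4) through *Vsir* at 167 ± 7.46, *Lgals9* at 132 ± 5.46 and *Havcr2* at 98.4 ± 6.86 to *Cd274* at 28.4 ± 4.82. The costimulatory genes were lower, with *Cd80* at 7.43 ± 0.394, *Cd40* at 4.01 ± 0.913 and *Cd86* at 1.69 ± 0.236. *Cd244a* had 1.17 ± 0.272 TPM and *Pdcd1lg2* 0.0812 ± 0.0471 TPM. *Cd80* TPM exceeded *Cd86* TPM in every library. Most neighbours in this order kept apart in all 4 vehicle libraries. The exception was *Cd86* and *Cd244a*, whose vehicle ranges met, the lowest *Cd86* value being 1.35 TPM and the highest *Cd244a* value 1.41 TPM. With bilirubin, *Vsir* at 152 ± 15.2 and *Lgals9* at 133 ± 28.9 TPM (SD, n = 4) overlapped.

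**Figure D1:**
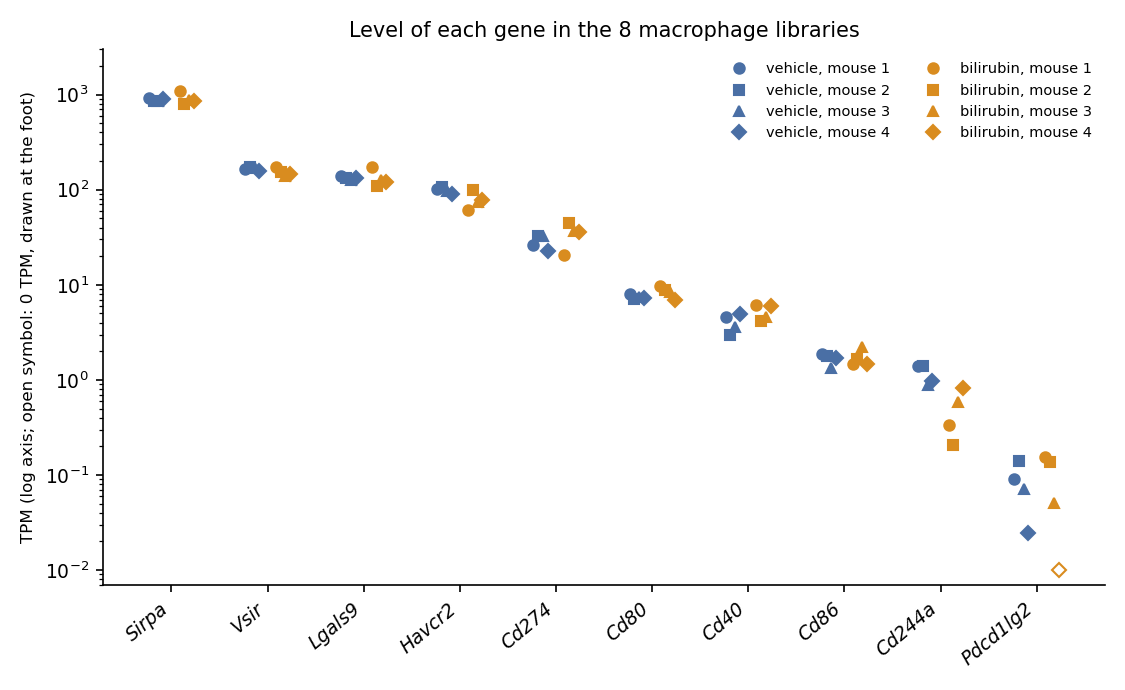
Level of each gene in TPM on a log axis, with blue for vehicle and orange for bilirubin and 1 symbol shape per mouse. *Sirpa* lay near 900 TPM and *Pdcd1lg2* near 0.1 TPM, with 1 bilirubin library of *Pdcd1lg2* at 0 (open symbol).

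Of the 10 genes, 9 had enough counts to be tested and 1, *Cd244a*, passed the threshold, against 7.53% of all tested genes. The median log2 fold change of the 9 genes was 0.03, and that of all tested genes was -0.00. An unadjusted p under 0.05 was reached by *Cd40*, *Havcr2*, *Vsir* and *Cd244a*, against 20.8% of all genes. *Cd40* was higher in all 4 mice, and *Havcr2* and *Cd244a* were lower in all 4, against 28.4% of all genes with 1 direction in every mouse. The vehicle and bilirubin ranges stayed apart for *Cd244a*, against 10.6% of all genes, and overlapped for the other 8.

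**Figure D2:**
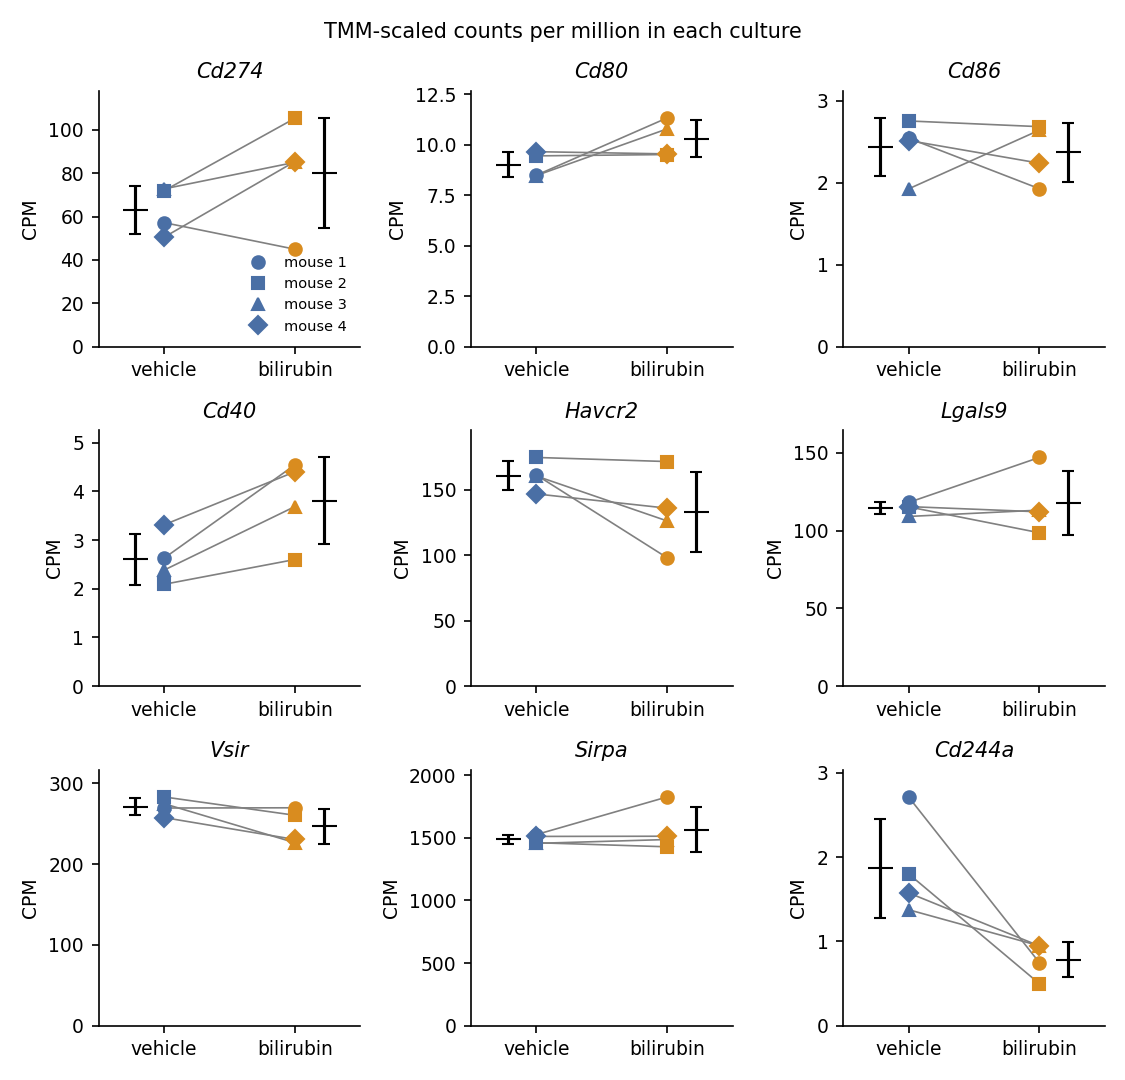
CPM of the 9 tested genes in each culture, with lines joining the vehicle (blue) and bilirubin (orange) cultures of a mouse, and bars giving the group mean and SD (n = 4). The groups stay apart for *Cd244a*, and the lines of *Cd40* all point up.

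Among the ligands of PD-1, *Cd274*, encoding PD-L1, was the expressed gene. It lies on chromosome 19 (chr19:29344529-29365495, plus strand, GRCm39), and the antisense genes *Gm36043* and *Plgrkt* overlap it. *Cd274* was at 57.2, 71.9, 72.8 and 50.5 CPM in the vehicle cultures of mice 1 to 4, and at 44.9, 105.3, 85.0 and 85.4 CPM in their bilirubin cultures. Bilirubin cultures of mice 2, 3 and 4 were thus higher than all vehicle cultures, and that of mouse 1 was lower than all of them. Within mice, the log2 changes were -0.35, 0.55, 0.22 and 0.76. The fitted log2 fold change was 0.30 (95% interval from -0.04 to 0.65) and did not pass edgeR's QL test (adjusted p = 0.302). Without mouse 1, it was 0.50 and passed the same test (adjusted p = 0.00115). With all mice but no filter on low counts, it was 0.30 and also passed (adjusted p = 0.00055 by the same test). Whether PD-L1 transcript is called upregulated in these cultures therefore depends on mouse 1 and on this filter. *Cd274* had 1 annotated transcript, of 7 exons, so no isoform was compared.

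*Pdcd1lg2*, encoding PD-L2, starts 22823 bases downstream of the end of *Cd274*, with no gene between them. It had 4, 5, 3 and 1 counts in the vehicle libraries and 5, 5, 2 and 0 in the bilirubin libraries, too few for a test. The *Cd274* neighbour was therefore close to the detection floor of 3 counts in both groups, and a difference in PD-L2 transcript was not detectable at this depth. PD-L2 stood at 0.00276 ± 0.00141 of the PD-L1 TPM in vehicle cultures (SD, n = 4).

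Genes that act on PD-L1 expression or stability were examined next to *Cd274*. Of 15 such genes, all tested, 1 rose and 1 fell, against 4.49% and 3.04% of all genes. Without mouse 1, 4 passed, against 13.9% of all genes, and 1 passed without mouse 2, 3 or 4. *Ifngr2*, a chain of the interferon gamma receptor, rose from 93.6 ± 0.647 to 116 ± 2.80 CPM (SD, n = 4), with a log2 fold change of 0.31 in edgeR's QL test (adjusted p = 0.00114). *Cmtm4*, which protects PD-L1 protein from degradation, fell by 0.19 on the log2 scale (adjusted p = 0.027, the same test), and was not called without mouse 2, 3 or 4. *Irf1*, an interferon-induced transcription factor that acts on *Cd274*, had a log2 fold change of 0.29 and did not pass (adjusted p = 0.106 by edgeR's test). The median of the list was 0.10.

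*Cd80* and *Cd86*, the ligands of CD28 and CTLA-4, lie on chromosome 16 (chr16:38275923-38316697, plus strand, and chr16:36424044-36486443, minus strand, GRCm39). *Cd80* was at 8.50, 9.46, 8.48 and 9.66 CPM in the vehicle cultures and at 11.3, 9.52, 10.8 and 9.56 CPM in the bilirubin cultures of mice 1 to 4. Mice 1 and 3 had the higher bilirubin values, and in mice 2 and 4 the cultures differed by 0.01 and -0.02 on the log2 scale. The log2 fold change was 0.19 (95% interval from -0.03 to 0.41, adjusted p = 0.327 by edgeR's QL test). The span of *Gm59959* overlaps that of *Cd80* on the same strand, and whether reads are shared between them was not tested.

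*Cd86* was at 2.55, 2.75, 1.93 and 2.52 CPM with vehicle and at 1.93, 2.69, 2.64 and 2.24 CPM with bilirubin, that is 67 to 121 counts per library. The highest and lowest values of both groups were nearly the same, and mice 1 and 3 moved in opposite directions. The log2 fold change was -0.04 (95% interval from -0.46 to 0.39, adjusted p = 0.947 by edgeR's QL test), and it was 0.08 without mouse 1. The interval reaches changes of 0.39 upward and -0.46 downward, so that a modest change was not detectable.

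The balance of the CD28 ligands was also taken within each culture, where scaling cancels. The ratio of *Cd86* to *Cd80* in TPM was 0.227 ± 0.0319 with vehicle and 0.204 ± 0.0467 with bilirubin (SD, n = 4). It was higher with bilirubin in 1 of 4 mice, with a mean log2 change of -0.17 (exact sign-flip permutation test, two-sided, p = 0.5, adjusted over 2 ratios 0.5). With 4 pairs the smallest p this test allows is 0.125, so it could not reach the threshold.

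*Cd40*, encoding the receptor for T cell help, lies on chromosome 2 (chr2:164897544-164914868, plus strand, GRCm39). *Cd40* was at 2.63, 2.09, 2.38 and 3.32 CPM with vehicle and at 4.55, 2.60, 3.69 and 4.4 CPM with bilirubin in mice 1 to 4. Each mouse had the higher value in its bilirubin culture, while the groups overlapped because the vehicle culture of mouse 4 was above the bilirubin culture of mouse 2. The log2 changes were 0.78, 0.31, 0.62 and 0.40. The fitted log2 fold change was 0.54 (95% interval from 0.21 to 0.87) with an unadjusted p of 0.00552 by edgeR's QL test, and it missed the threshold over all genes (adjusted p = 0.0652). *Cd40* had 79 to 177 counts per library. The ratio of *Cd40* to *Cd86* in TPM had a mean log2 change of 0.39 and was higher in 3 of 4 mice (exact sign-flip permutation test, two-sided, p = 0.25, adjusted over 2 ratios 0.5).

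Genes that act below CD40 were examined next to the receptor. Of 12 genes of CD40 signalling, all tested, 6 rose and 1 fell, against 4.49% and 3.04% of all genes, and 5 did not pass. In each of 12 alternative analyses 6 or 7 passed. The median log2 fold change of the list was 0.25, against -0.00 over all genes. *Traf1*, an adaptor that NFκB itself induces, rose from 1.90 ± 0.193 to 7.38 ± 2.22 CPM (SD, n = 4) with a log2 fold change of 1.92 (adjusted p = 0.000513, edgeR's QL test). *Relb* and *Nfkb2*, which form the non-canonical NFκB dimer, rose by 1.00 and 0.63, and *Birc3*, a ubiquitin ligase of the receptor complex, rose by 0.76 on the log2 scale. Bilirubin and vehicle ranges stayed apart for these 4 genes and for *Traf3* and *Traf6*, against 10.6% of all genes. The 4 genes were named for their small p, so this is a description only. *Traf6*, the adaptor of the canonical branch, fell by 0.29 on the log2 scale (adjusted p = 0.00478, the same test). *Traf3* and *Tnfaip3* had log2 fold changes of 0.41 and 0.38 and passed, but *Tnfaip3* was not called without mouse 2, 3 or 4. *Map3k14*, the kinase NIK, did not pass (0.11), nor did *Traf2*, *Traf5*, *Birc2* and *Chuk*. These genes also serve receptors other than CD40.

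**Figure D3:**
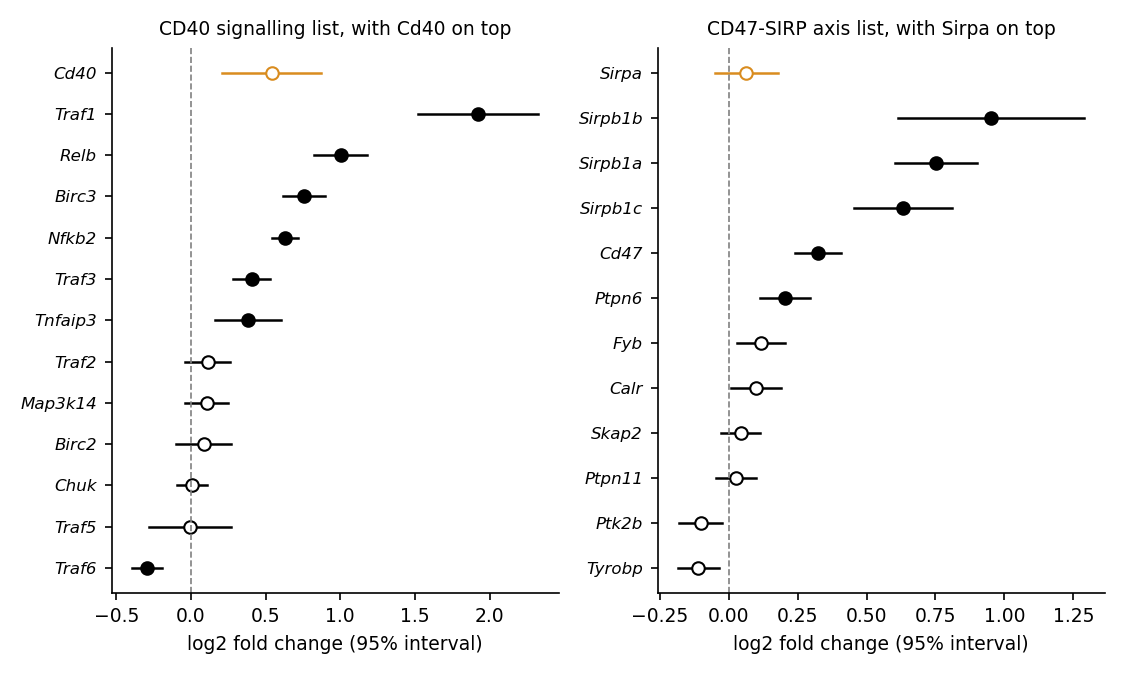
Log2 fold change (points) with its 95% interval (lines) for the CD40 signalling genes and the CD47 and SIRP genes, with *Cd40* and *Sirpa* in orange on top and filled points past the threshold. *Traf1* at 1.92 lies farthest to the right, and *Sirpa* at 0.06 lies near 0 while the 3 *Sirpb1* genes lie above it.

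*Havcr2*, encoding TIM-3, lies on chromosome 11 (chr11:46345673-46374149, plus strand, GRCm39). *Havcr2* was at 161, 174, 160 and 147 CPM with vehicle and at 98, 171, 126 and 136 CPM with bilirubin in mice 1 to 4. All 4 bilirubin cultures were lower than their partner, with log2 changes of -0.72, -0.03, -0.35 and -0.11, so the size of the difference varied widely between mice. The fitted log2 fold change was -0.30 (95% interval from -0.52 to -0.07, adjusted p = 0.124 by edgeR's QL test). Without mouse 1 it was -0.16 and did not pass either (adjusted p = 0.0698). One protein-coding transcript of 7 exons held 94.9% of *Havcr2* TPM.

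*Lgals9*, encoding galectin-9, a TIM-3 ligand, lies on the minus strand of the same chromosome (chr11:78853800-78875798, GRCm39). *Lgals9* was at 118, 115, 109 and 115 CPM with vehicle and at 147, 98.7, 113 and 112 CPM with bilirubin. The bilirubin culture of mouse 1 was the highest of all 8 and that of mouse 2 the lowest, and the other 6 lay close together. The log2 fold change was 0.03 (95% interval from -0.15 to 0.20, adjusted p = 0.896 by edgeR's QL test) and -0.07 without mouse 1. In mouse 1 the receptor and its ligand thus moved apart, with *Havcr2* at -0.72 and *Lgals9* at 0.32 on the log2 scale. Of 12 further TIM, galectin and TIM-3 partner genes, 9 were tested and 0 passed in edgeR's QL test, against 7.53% of all genes. With DESeq2 or limma-voom 0 passed as well. An unadjusted p under 0.05 was reached by 4 of them, against 20.8% of all genes. Without mouse 1, 2 passed, against 13.9% of all genes. The abundant *Lgals3* and *Lgals1* had log2 fold changes of 0.00 and -0.10, and *Lgals1* passed without mouse 1 (-0.12).

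*Vsir*, encoding VISTA, lies on chromosome 10 (chr10:60182630-60208463, plus strand, GRCm39) within *Cdh23*, which is read from the other strand. *Vsir* was at 269, 283, 275 and 258 CPM with vehicle and at 270, 260, 227 and 231 CPM with bilirubin. Mice 2, 3 and 4 had the lower value with bilirubin, and the cultures of mouse 1 were equal to within 0.00 on the log2 scale. The log2 fold change was -0.14 (95% interval from -0.25 to -0.03, adjusted p = 0.125 by edgeR's QL test). Without mouse 1 it was -0.19 and passed (adjusted p = 0.0058). *Vsir* TPM was split over a full-length transcript (45.4%), a retained-intron transcript (31.9%) and a shorter coding transcript (18.3%).

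*Sirpa*, the most abundant of the 10, lies on chromosome 2 (chr2:129434039-129474148, plus strand, GRCm39). *Sirpa* was at 1526, 1461, 1456 and 1512 CPM with vehicle and at 1827, 1429, 1487 and 1513 CPM with bilirubin. The bilirubin culture of mouse 1 stood above the other 7, which differed little. The log2 fold change was 0.06 (95% interval from -0.05 to 0.18, adjusted p = 0.532 by edgeR's QL test), and it was -0.00 without mouse 1. The 95% interval thus leaves out a mean rise of this inhibitory receptor above 0.18 on the log2 scale, although mouse 1 itself rose by 0.26. The leading 5 transcripts held 11.7% to 22.0% of *Sirpa* TPM each. The span of *Gm75159* overlaps that of *Sirpa* on the same strand, and whether reads are shared between them was not tested.

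Relatives and partners of SIRPα were examined next to *Sirpa*. Of 11 genes of the CD47 and SIRP axis, all tested, 5 rose, against 4.49% of all genes, and 6 did not pass. None fell (0 by edgeR, DESeq2 and limma-voom), 2 having an unadjusted p under 0.05 in the downward direction, and the median log2 fold change was 0.12. Without mouse 3 or mouse 4, 3 of these genes passed, as without the pairing by mouse. Without mouse 1, 7 passed, against 13.9% of all genes, and 7 passed with library size alone for scaling. *Cd47*, its ligand, rose from 144 ± 2.26 to 180 ± 7.44 CPM (SD, n = 4), a log2 fold change of 0.32 (adjusted p = 0.00139, edgeR's QL test). *Sirpb1a*, *Sirpb1b* and *Sirpb1c*, which are related to SIRPα outside the cell but signal through the activating adaptor DAP12, rose by 0.75, 0.95 and 0.63 on the log2 scale. *Ptpn6*, the phosphatase SHP-1 that SIRPα recruits, rose by 0.21 on the log2 scale, while *Ptpn11* (SHP-2) and *Tyrobp* (DAP12) had log2 fold changes of 0.03 and -0.11 and did not pass. The *Sirpb1* genes resemble *Sirpa* in sequence, so reads may be shared among them, and their values are uncertain in that respect.

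*Cd244a*, encoding 2B4, lies on chromosome 1 (chr1:171386708-171437315, plus strand, GRCm39). *Cd244a* had 129, 68, 60 and 67 counts in the vehicle libraries of mice 1 to 4 and 26, 18, 38 and 38 in their bilirubin libraries, which is 2.71, 1.80, 1.38 and 1.58 CPM against 0.748, 0.498, 0.947 and 0.946 CPM. Every vehicle culture was above every bilirubin culture, by most in mice 1 and 2. The log2 changes were -1.79, -1.76, -0.52 and -0.71. *Cd244a* fell by 1.22 on the log2 scale (95% interval from -1.89 to -0.55, adjusted p = 0.0429 by edgeR's QL test), to 0.429 times the vehicle level. The call was close to the threshold and was lost without any 1 of the 4 mice (adjusted p from 0.0593 to 0.166 by the same test), although the direction held each time. *Cd244a* was among the genes the study displayed from these same libraries, so its call is not independent evidence of a direction.

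The reads of *Cd244a* were spread over a coding transcript of 9 exons (60.1% of TPM) and a retained-intron transcript (33.5%), and the share of the coding transcript varied from 19.3% to 100% between bilirubin libraries. *Ly9*, another SLAM family gene, overlaps *Cd244a* on the other strand, and the strand setting of the counting is not given in the sources used here. *Ly9* had 183 ± 9.08 CPM with vehicle and 200 ± 16.5 CPM with bilirubin (SD, n = 4), and its log2 fold change of 0.12 did not pass (adjusted p = 0.108 by edgeR's test), while without mouse 1 it was 0.15 and passed (adjusted p = 0.0252). The part of this overlap in the *Cd244a* value was not tested.

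Of 8 other SLAM family genes and adaptors tested, 2 rose and 0 fell by edgeR, DESeq2 and limma-voom alike. By edgeR, 4.49% of all genes rose and 3.04% fell. In the downward direction, 2 genes of the list had an unadjusted p under 0.05. The count of 2 called genes became 3 without mouse 1, against 13.9% of all genes. It became 1 without mouse 3 and 0 without mouse 2 or mouse 4. *Slamf8*, a macrophage member of the family, rose from 1.38 ± 0.458 to 3.02 ± 0.652 CPM (SD, n = 4) with a log2 fold change of 1.14 (adjusted p = 0.0137, edgeR's QL test). *Slamf6* rose by 1.34 on the log2 scale from 0.485 ± 0.137 CPM. *Cd48*, the ligand of 2B4, had a log2 fold change of 0.06 and *Cd84* one of -0.10, and neither passed. The genes whose levels over the 8 libraries were most like *Cd244a* were *Bloc1s4*, *Gm33370*, *Nxn*, *Pign* and *Tceal1*, with Pearson's r of 0.968, 0.965, 0.960, 0.958 and 0.947. These 8 libraries share 4 mice and fall into 2 treatments, so the likeness is a description without a test.

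**Figure D4:**
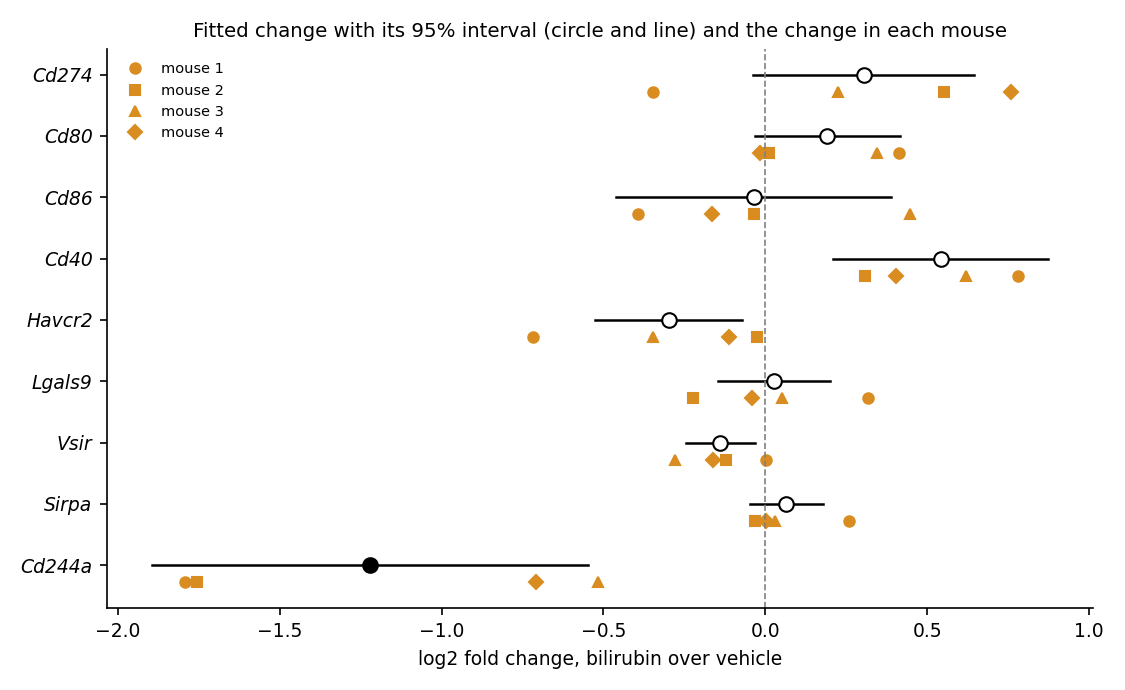
Fitted log2 fold change of the 9 tested genes (circle, filled where past the threshold) with its 95% interval (line), and the change in each mouse below it (orange). The interval of *Cd274* spans 0 with mouse 1 alone to the left, and that of *Cd244a* ends at -0.55.

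**Figure D5:**
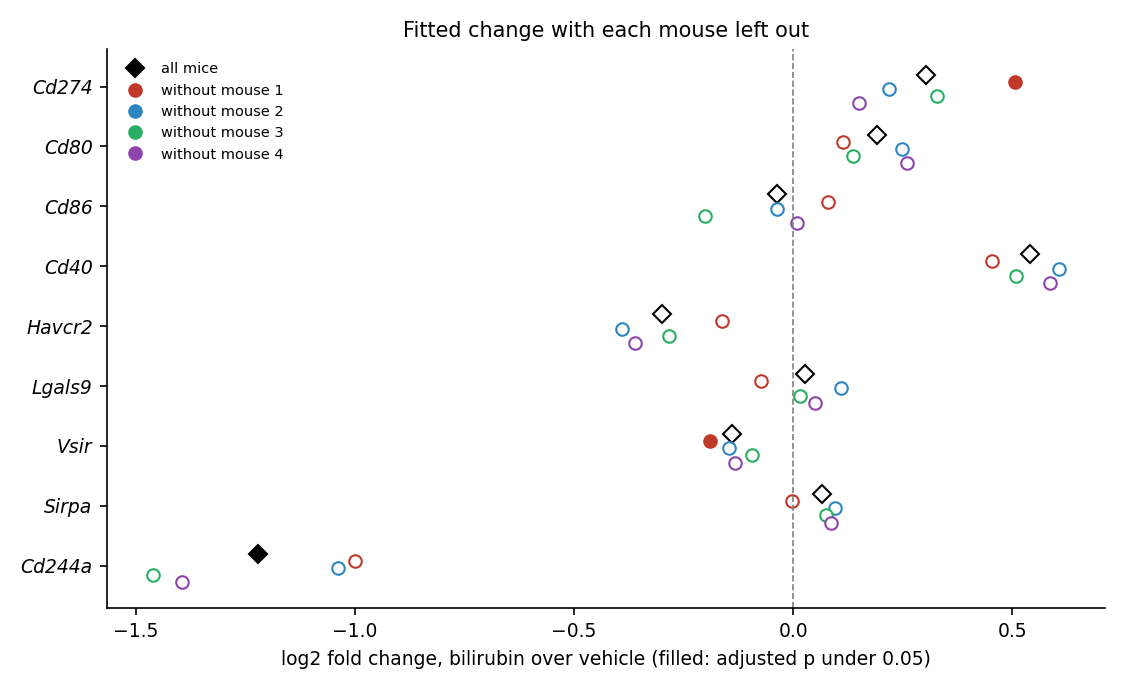
Fitted log2 fold change of each tested gene with all mice (diamond) and with each mouse left out (circles), filled where the adjusted p is under 0.05. *Cd274* and *Vsir* are filled without mouse 1, and *Cd244a* is filled with all mice.

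The within-mouse change of mouse 1 lay at one end of the 4 values for all 9 tested genes. It was the lowest of the 4 for *Cd274*, *Cd86*, *Havcr2* and *Cd244a* and the highest for *Cd80*, *Cd40*, *Lgals9*, *Vsir* and *Sirpa*. For *Cd244a*, mice 1 and 2 were nearly equal (-1.79 and -1.76). The share of all genes with mouse 1 at one end was not computed, so this count is a description only. The 9 genes are not independent, with Pearson's r over the libraries reaching 0.947 for *Lgals9* and *Sirpa*. Without mouse 1, 2 of the genes passed (*Cd274* upregulated and *Vsir* downregulated), against 13.9% of all genes tested, and *Cd244a* did not.

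Transcripts of the 10 genes gave no further calls. Of 48 annotated transcripts, 32 were tested and 0 passed in edgeR's QL test, against 0.0366% of all transcripts, and 4 had an unadjusted p under 0.05. Use of a transcript within its gene was tested for 30 of them and 0 passed, against 0.0509% of all, while 2 had an unadjusted p under 0.05. One was a *Cd40* transcript subject to nonsense-mediated decay, which had 0, 0, 38 and 0 estimated counts with vehicle and 34, 21, 32 and 28 with bilirubin (adjusted p = 1 by edgeR's test of transcript usage). The other was a coding *Sirpa* transcript with 2.01% of its gene's TPM (adjusted p = 0.976, the same test). It had 0, 46, 158 and 434 estimated counts with vehicle and 180, 227, 515 and 344 with bilirubin. Assignment of reads between such similar transcripts is an estimate whose error the test does not hold.

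Among other costimulatory and B7 family ligands, 11 of 17 were tested, and 1 rose and 1 fell, against 4.49% and 3.04% of all genes. The fall, that of *Icosl*, was not called without mouse 2, 3 or 4. *Icam1*, the adhesion ligand of LFA-1 on T cells, rose from 51.5 ± 3.38 to 87.8 ± 10.5 CPM (SD, n = 4), a log2 fold change of 0.77 (adjusted p = 0.000398, edgeR's QL test). *Icosl*, the ligand of ICOS, fell by 0.59 on the log2 scale, from 18.0 ± 0.529 to 12.1 ± 2.48 CPM (adjusted p = 0.012, the same test). *Cd276* (B7-H3) had a log2 fold change of -0.19 and did not pass, and *Cd70*, *Vtcn1* and *Tnfsf18* had 0 to 3 counts in every library.

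Inhibitory receptors of myeloid cells, which like SIRPα signal through phosphatases, changed in both directions in the fit of all mice. Of 15 genes, all tested, 6 rose and 3 fell, against 4.49% and 3.04% of all genes, with a median log2 fold change of -0.03. Without mouse 1, 10 passed, against 13.9% of all genes, and 5 passed without mouse 3 or mouse 4. *Pilra* rose by 1.51, *Clec4a2* by 0.45, *Clec12a* by 0.32 and *Lilrb4a* by 0.29 on the log2 scale, with adjusted p from 0.00185 to 0.00265 by edgeR's QL test. *Cd72* fell by 0.45, *Cd300a* by 0.21 and *Milr1* by 0.19 on the log2 scale (adjusted p from 0.00599 to 0.0184, the same test), and the other 6 did not pass. These 3 falls were not called without mouse 3 or mouse 4, where the 5 genes that passed all rose. *Cd72* and *Milr1* were also not called without mouse 2 or with an offset for transcript length. The groups stayed apart for *Pilra* among others, at 5.23 to 8.06 CPM with vehicle and 10.7 to 25.5 CPM with bilirubin. Of all genes, 10.6% had ranges that stayed apart.

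Most lymphocyte receptors for these ligands were too low to test, with 3 of 13 tested. *Pdcd1*, *Ctla4*, *Cd40lg*, *Tigit*, *Cd226* and *Cd96* had 0 to 3 counts in every library. *Cd28*, the receptor of CD80 and CD86 on T cells, was one of the 3. It was at 14.2, 13.6, 9.24 and 10.6 CPM with vehicle and at 7.31, 6.89, 5.71 and 3.43 CPM with bilirubin in mice 1 to 4. Each vehicle culture was above each bilirubin culture, and 10.6% of all genes had ranges that stayed apart. *Cd28* fell by 1.05 on the log2 scale (adjusted p = 0.00269 by edgeR's QL test) and passed in 12 of 12 alternative analyses. The T cell marker *Cd2* had a log2 fold change of -0.35 that did not pass (adjusted p = 0.321 by edgeR's QL test), and without mouse 1 it was -0.60 and passed (adjusted p = 0.00519). The part of T cell markers in the *Cd28* value was not tested. Over the 8 pathway lists, 81 distinct genes were tested, of which 21 rose and 7 fell, against 4.49% and 3.04% of all genes.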

How the data were processed

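RNA was sequenced from a vehicle and a bilirubin culture of each of 4 mice. The authors trimmed reads with Trim Galore 0.6.7 and Cutadapt 3.4, aligned them with STAR 2.7.9a to GRCm39 and quantified transcripts with Salmon 1.10.1, per the paper and the submitters' processing notes. The authors deposited unscaled estimated counts (expected counts) of Salmon per gene and per library the estimated counts and TPM of 142434 transcripts. These deposited TPM, summed per gene, gave the levels.

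Testing used edgeR 4.0.16 in R 4.3.3 on the rounded counts (TMM, filterByExpr on the groups with a minimum of 10 counts and 15 in total, mouse and treatment in the model, quasi-likelihood test, Benjamini-Hochberg adjustment). Standard errors and 95% intervals were derived from the F statistic of each fold change. CPM were scaled by TMM. Intervals give the uncertainty of the fitted mean change, and the change of a single mouse can lie outside them. The labels number the cultures, and the paper names 4 mice and fits the mouse as a covariate, so cultures were paired by number. Deviations from the group means correlated at 0.0862 on average within mice and -0.0279 between mice. Within mice 1 to 4 the values were 0.108, 0.134, 0.108 and -0.0053, and the highest between mice was 0.0751. Alternatives used DESeq2 1.42.0, limma 3.58.1 (voom), other scalings and filters, a transcript length offset, no replicate block and each mouse left out. Procedures were tested on simulated data.

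The 10 genes and all lists were chosen with earlier results of these data known. Named were the 10 genes, at most 4 genes with the smallest p per list among those past the threshold, the 5 genes most correlated with a called gene, and transcripts with at least 10% of their gene's TPM. A *Sirpa* transcript below that share was named for its unadjusted p. Other genes were named for their role after their values were seen. Markers of B cells, NK cells, mast cells and fibroblasts were also listed, and 0 of these genes passed by edgeR, DESeq2 or limma-voom, with 1 at an unadjusted p under 0.05. Gene positions came from GENCODE on GRCm39 and start sites from RefSeq on GRCm38.p6. Protein sequences were not used here. The result of 1 listed gene is not reported here.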

Additional observations from a re-analysis of the deposited data

Results flagged for a closer look

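Among 114 groups of 4 values from 38 genes, 5 held a value set apart from the other 3 by Dixon's criterion at 95%, and chance flags about 1 in 20 groups. *Icosl* in the bilirubin culture of mouse 1 was at 15.8 CPM, against 10.6 to 11 CPM in the other 3. The within-mouse log2 change of *Icosl* was accordingly -0.16 in mouse 1 and from -0.79 to -0.69 in the others. *Milr1* with bilirubin was at 81.8 CPM in mouse 3, against 77.1 to 77.6 CPM. *Slamf8* with vehicle was at 2.06 CPM in mouse 3, against 1.09 to 1.25 CPM. The log2 change of *Cd47* was 0.42 in mouse 1 and 0.28 to 0.30 in the others. None of the 5 was in one of the 10 genes themselves.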

How the results depend on the processing

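Each gene result was recomputed under 12 alternatives. *Cd80* kept its direction and did not pass in any of them. *Cd244a* kept its direction in all 12 and passed in 7. With an offset for transcript length its log2 fold change was -1.35 and did not pass (adjusted p = 0.179, edgeR's quasi-likelihood test), and with a mouse left out it ranged from -1.46 to -0.999. Without a filter on low counts, *Cd274* (0.30), *Cd40* (0.54), *Havcr2* (-0.30) and *Vsir* (-0.14) also passed, with log2 fold changes close to those with the filter. With a mouse left out, *Cd274* ranged from 0.15 to 0.50, *Vsir* from -0.19 to -0.0946, *Cd86* from -0.20 to 0.08, *Lgals9* from -0.07 to 0.11 and *Sirpa* from -0.00 to 0.10. *Cd86* turned to 0.0792 without mouse 1, 0.00829 without mouse 4 and 0.0465 with the length offset, and without mouse 1 *Lgals9* turned to -0.0728 and *Sirpa* to -0.00292, none of these being called. The cause was not tested.

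Of the 10 genes, 5 passed without a filter, 0 with the length offset and 0 to 2 with a mouse left out. Over all genes, the number past the threshold was 1692 without a filter, 579 with the length offset and 377 to 1910 with a mouse left out. Without the pairing of cultures by mouse (no replicate block) it was 686, and *Cd244a* still passed at -1.24. Without a filter, 6 of the PD-L1 regulators and 6 of the other B7 ligands passed, against 2 of each with it. Genes of the pathway lists past the threshold numbered 28, and 17 to 36 with a mouse left out. The 14 transcripts past the threshold became 210 without the replicate block, 42 with CPM above 1 in 4 libraries, and 0 to 1 with a mouse left out, so transcript counts are not a stable measure here. At 18 to 129 counts per library for *Cd244a* and 0 to 5 for *Pdcd1lg2*, depth limits what could be seen of these genes.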
